A study of Homo sapiens with 28 samples.

Results

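The genes of the proteasome subunits were followed through ATAC-seq, an assay in which a transposase inserts adapters into open chromatin, in human myeloma cell lines. Untreated cells of 22 lines were assayed once each, and 6 of these lines (Karpas620, KMS27, L363, MM1S, OPM2 and RPMI8226) were assayed again on day 3 of 10 µM lenalidomide, an immunomodulatory drug used against myeloma, for 28 libraries in all. No alleles or other agents distinguish the groups, a line is a single culture under each condition, and the files cover autosomes only. The list holds 40 genes: 7 of the alpha ring, 4 of the beta ring without proteolytic activity, 3 constitutive catalytic subunits, 3 immunoproteasome catalytic subunits, 6 ATPases and 13 other subunits of the 19S regulatory particle, the 2 interferon-inducible subunits of the 11S activator and 2 further activators. The deposited annotation gives the gene with the nearest transcription start for each of 154985 regions, and 93 of them were labelled with 37 of the 40 genes. A promoter region is one that covers an annotated start. There were 38 such regions for 35 genes, of 18012 promoter regions in all.

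The remaining 5 genes start in regions that carry another gene's name. PSMB9 shares its region with TAP1, PSMC5 with FTSJ3, PSMD7 with AC009120.4 and PSMD13 with SIRT3, and PSME3 starts in a pair of regions labelled BECN1. These 6 shared promoter regions were found from the annotation of 5′ untranslated exons after the files had been seen, and bring the total to 44. Counts there cannot be divided between the genes that share them.

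The proteasome degrades ubiquitin-tagged proteins. Its 20S core stacks alpha rings, which gate the entry, on beta rings, in which PSMB6, PSMB7 and PSMB5 carry the caspase-like, trypsin-like and chymotrypsin-like activities. Interferon induces PSMB9, PSMB10 and PSMB8, also present in lymphoid cells, which take the places of PSMB6, PSMB7 and PSMB5 in newly built particles, the immunoproteasome, and favour peptides for MHC class I. Plasma cells make large amounts of antibody and depend on protein degradation, and PSMB5 is the subunit that bortezomib, a drug of myeloma therapy, inhibits.

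Counts per library totalled 1599857 to 5564534 (median 2239819) in untreated and 2168680 to 4248017 in lenalidomide libraries, and CPM below are counts scaled to these totals. The share of counts in promoter regions ran from 37.1% in H1112 to 57.3% in KMS27 over the untreated lines, and the summed level of the 44 proteasome promoters ran between the same lines, from 1179 to 1965 CPM. Of 8 plasma cell markers all had a promoter region. By the tallest region of each gene, TNFRSF17, PRDM1 and POU2AF1 were called as peaks in all 22 untreated lines. Of all promoter regions of the series 29.4% were called in all 22, counted over every region and not the tallest of a gene. SDC1 was called in 21 lines, MZB1 in 20, IRF4 and XBP1 in 18 and SLAMF7 in 2, at a median of 5.12 CPM. Of the defining genes of other cells, MS4A1 of B cells was called in 2 lines, CD22 in 1 and CD3E of T cells in 1, and no promoter region was found for PAX5, CD3D, CD2, CD14, CSF1R or LYZ. The summed level ran from 0.00 to 26.8 CPM over the 4 B cell genes and from 0.00 to 6.19 CPM over the 3 T cell genes. HBB, an erythroid gene, was called in 9 lines at up to 30.8 CPM.

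Nearly all proteasome genes had open promoters in these cells. Of the 38 promoter regions, 25 were called as peaks in all 28 libraries, and with the shared regions the count was 29 of 44. Among all promoter regions of the series 29.2% were called in all 28 libraries. Per kb of region, the mean level of the 44 ranged from 7.16 to 64.9 CPM with a median of 34.4, and the median over all promoter regions was 19.03. Calls were fewest at a second start of PSMD2, at chr3:184023395-184023769, with 2 libraries, and at PSMB6 with 12.

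**Figure D1:**
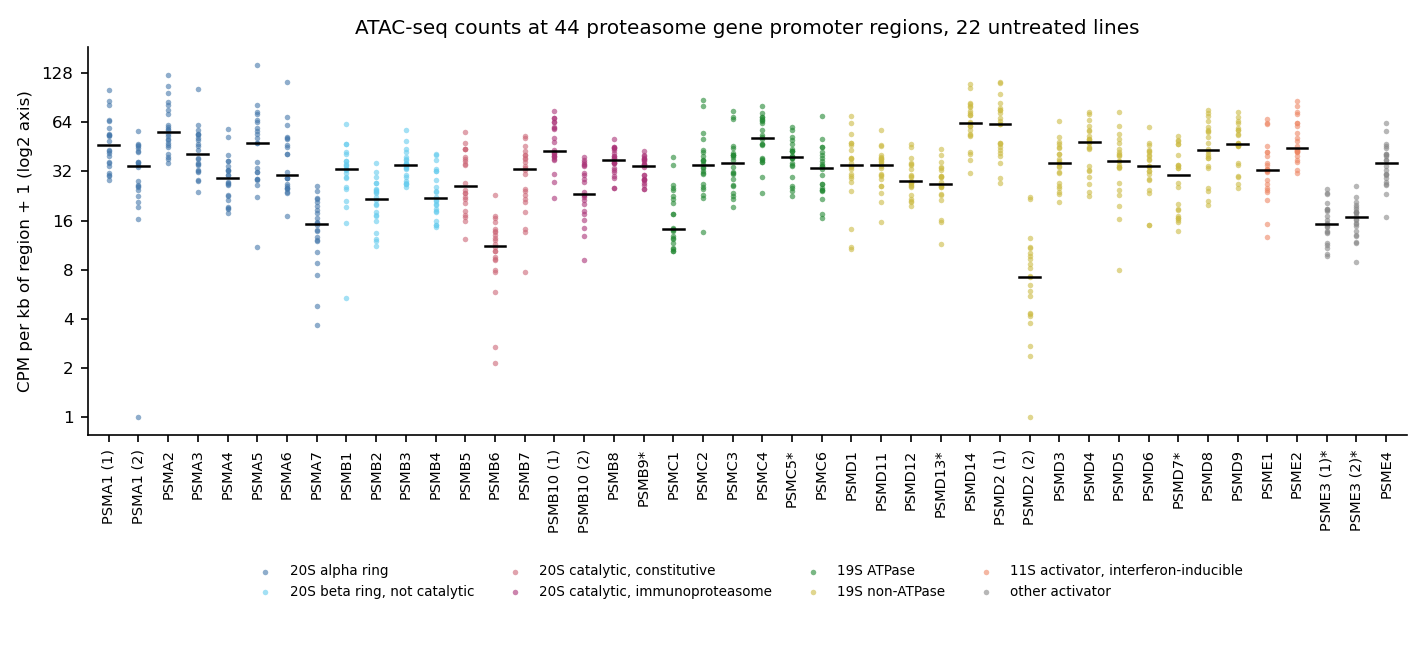
ATAC-seq level of each proteasome gene promoter region in 22 untreated lines. The y axis is CPM per kb of region plus 1 on a log2 axis, each point is a line, the black bar is the median, numbers in brackets count several regions of a gene along the chromosome and an asterisk marks a region labelled with another gene; PSMB8 and PSMB9 form the tightest columns, and PSMB6, PSMA7 and the second region of PSMD2 lie low.

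Among the alpha ring genes, PSMA2 had the highest level per length, 61.8 ± 23.7 CPM per kb (SD, n = 22 lines), and PSMA7 the lowest, 14.16 ± 5.998. PSMA7 was called in 21 of 28 libraries and its 472 bp region is the narrowest of the ring. PSMA1 had a region at each of 2 start sites, at chr11:14541341-14542433 with 49.9 ± 19.7 CPM per kb and at chr11:14665119-14666499 with 31.5 ± 12.8 CPM per kb (SD, n = 22). The second lies farther upstream and also covers the start of PDE3B, a phosphodiesterase gene.

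In the beta ring, PSMB3 had 34.5 ± 7.75 and PSMB2 20.6 ± 6.58 CPM per kb (SD, n = 22), with PSMB1 and PSMB4 between them. PSMB1 was called in 24 of 28 libraries. It had 2.52 CPM in H1112, from 14 counts (95% Wilson interval 1.499 to 4.22 CPM), against a median of 18.4 CPM over the lines.

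The 6 ATPases, which unfold substrates at the base of the 19S particle, ran from 17.1 ± 8.02 CPM per kb at PSMC1 to 51.2 ± 15.5 at PSMC4 (SD, n = 22). Of the 14 promoter regions of the other 19S subunits, 11 were called in all 28 libraries. PSMD14, the deubiquitinase of the lid, had the highest level of all 44 regions, 64.9 ± 19.9 CPM per kb, and PSMD2, a scaffold of the base, had 61.3 ± 24.5 at its first start (SD, n = 22).

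Of the activators, PSME1 and PSME2 form the 11S cap that interferon gamma induces. PSME2 had 50.7 ± 15.8 and PSME1 34.3 ± 14.5 CPM per kb (SD, n = 22). PSME4, the PA200 activator, had 35.5 ± 10.8 CPM per kb. PSME3, the nuclear PA28 gamma, had 15.1 ± 4.37 CPM per kb at chr17:40975957-40976660, which covers an annotated start and is labelled BECN1. It had 15.6 ± 3.87 at the region that holds its main start.

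The 3 immunoproteasome subunits each had a promoter region called in all 22 untreated lines, and their mean levels per length exceeded those of the constitutive subunits they replace. Over 22 untreated lines PSMB8 ranged from 24.4 CPM per kb in OPM2 through a median of 36.7 to 49.3 in KMS18. PSMB5 ranged from 11.3 in XG-6 through 24.9 to 54.8 in KMS27, so both ends of the range of PSMB8 fell inside that of PSMB5. PSMB9, by the region it shares with TAP1, a peptide transporter of the MHC class I pathway, ranged from 23.9 in OPM2 through 33.6 to 41.6 in U266.

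PSMB6 was low in all lines, from 1.14 CPM per kb in KMS26 through 10.3 to 21.9 in Karpas620, and no line reached the lowest value of PSMB9. The KMS26 value is 1 count, or 0.611 CPM (95% Wilson interval 0.108 to 3.46 CPM). PSMB10, over 2 regions, ranged from 16.9 in PCM6 through 35.8 to 54.5 in OPM2, and PSMB7 from 6.73 in H1112 through 32.2 to 51.9 in KMS12BM.

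Within lines, PSMB8 exceeded PSMB5 by 0.40 ± 0.60 in log2(CPM per kb + 1) (SD, n = 22), with the difference above 0 in 14 lines (two-sided sign-flip permutation test, p = 0.00488, adjusted p = 0.00732 over 3 pairs). PSMB9 exceeded PSMB6 by 1.699 ± 0.81 and in 22 of 22 lines (same permutation test, p = 1e-05, the smallest that 100000 draws can give, adjusted p = 3e-05). PSMB10 exceeded PSMB7 by 0.35 ± 0.64 and in 15 of 22 lines (same permutation test, p = 0.0144, adjusted p = 0.0144). The difference ran from -0.48 to 1.55 for the first pair, from 0.63 to 4.11 for the second and from -0.89 to 2.06 for the third. KMS12BM and KMS12PE were derived from 1 patient, and without KMS12PE the differences were 0.38, 1.71 and 0.38 with adjusted p = 0.00984, 3e-05 and 0.00984 (permutation tests, n = 21 lines).

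The third difference depended on which PSMB10 region was counted. PSMB10 had 47.1 ± 14.5 CPM per kb at chr16:67969355-67970062, inside the gene at the start of an annotated alternative transcript and called in all 28 libraries. At chr16:67970492-67971076, which holds the coding start and was called in 17 libraries, it had 24.4 ± 8.82 (SD, n = 22). With the region inside the gene alone, which is the taller, PSMB10 minus PSMB7 was 0.69 ± 0.62 and above 0 in 21 of 22 lines (permutation test, p = 1e-05). With the coding start region alone, the difference was -0.26 ± 0.79 and above 0 in 8 of 22 lines (permutation test, p = 0.137).

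**Figure D2:**
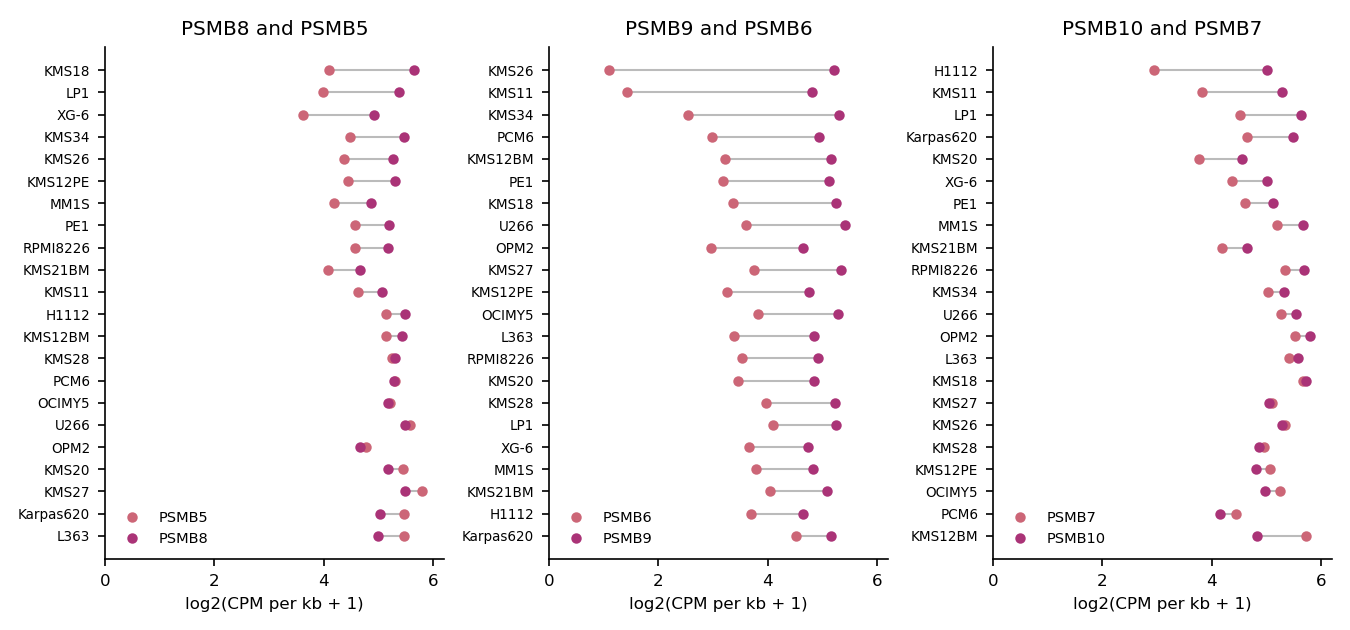
Levels of the immunoproteasome and constitutive catalytic subunit promoters in each of 22 untreated lines. The x axis is log2(CPM per kb + 1), each row is a line ordered by its difference, and grey bars join the 2 subunits of a line; PSMB9 lies to the right of PSMB6 in all 22 lines, while PSMB8 lies to the right of PSMB5 in 14 and PSMB10 to the right of PSMB7 in 15.

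Promoter sequences of these subunits are shown because the open regions cover them, and because the immunoproteasome and 11S genes are known to respond to interferon through elements near their starts. RefSeq windows of GRCh38.p14, 250 bases before to 50 after a start, were matched for 35 of the 40 genes as 42 windows. There were none for PSMA7, PSMB1, PSMB6, PSMB7 and PSMD4. Of the 42, 41 had 1 exact match in GRCh37, and 37 lay wholly inside counted regions of their gene. Each sequence below runs 5′ to 3′ on the gene's strand, with matches to any of 4 motifs in capitals.
PSMB8, chr6:32811775-32812074, minus strand, GRCh37: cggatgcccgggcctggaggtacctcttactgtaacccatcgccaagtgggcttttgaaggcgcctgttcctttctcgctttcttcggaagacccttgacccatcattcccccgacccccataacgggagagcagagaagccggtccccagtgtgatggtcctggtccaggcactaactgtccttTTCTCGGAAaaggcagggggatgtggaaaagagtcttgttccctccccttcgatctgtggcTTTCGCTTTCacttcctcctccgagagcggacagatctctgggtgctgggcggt
PSMB10, chr16:67970704-67971003, minus strand, GRCh37: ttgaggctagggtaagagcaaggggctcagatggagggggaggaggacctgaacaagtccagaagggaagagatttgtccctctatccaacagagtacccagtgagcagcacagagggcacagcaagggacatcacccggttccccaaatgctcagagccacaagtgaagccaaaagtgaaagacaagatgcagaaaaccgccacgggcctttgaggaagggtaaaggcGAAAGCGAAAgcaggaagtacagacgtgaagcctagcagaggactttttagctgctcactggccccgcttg
PSME1, chr14:24605153-24605452, plus strand, GRCh37: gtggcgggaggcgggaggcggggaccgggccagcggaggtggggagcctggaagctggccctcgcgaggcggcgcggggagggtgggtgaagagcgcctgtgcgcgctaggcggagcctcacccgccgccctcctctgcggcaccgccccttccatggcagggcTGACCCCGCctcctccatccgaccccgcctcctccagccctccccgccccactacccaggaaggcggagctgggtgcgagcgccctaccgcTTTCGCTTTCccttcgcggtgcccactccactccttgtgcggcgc
PSME2, chr14:24615770-24616069, minus strand, GRCh37: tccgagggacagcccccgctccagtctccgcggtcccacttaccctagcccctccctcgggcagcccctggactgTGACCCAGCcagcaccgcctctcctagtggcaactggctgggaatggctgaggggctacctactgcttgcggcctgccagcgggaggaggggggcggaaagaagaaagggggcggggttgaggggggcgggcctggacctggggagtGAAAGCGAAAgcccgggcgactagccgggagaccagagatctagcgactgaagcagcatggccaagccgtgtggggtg
PSMB9, chr6:32821719-32822018, plus strand, GRCh37: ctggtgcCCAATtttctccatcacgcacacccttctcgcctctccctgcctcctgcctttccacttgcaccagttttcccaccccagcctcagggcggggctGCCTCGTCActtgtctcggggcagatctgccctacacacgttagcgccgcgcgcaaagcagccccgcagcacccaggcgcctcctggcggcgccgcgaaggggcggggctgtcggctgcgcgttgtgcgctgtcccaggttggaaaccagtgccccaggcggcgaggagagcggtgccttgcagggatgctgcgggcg
PSMB5, chr14:23504380-23504679, minus strand, GRCh37: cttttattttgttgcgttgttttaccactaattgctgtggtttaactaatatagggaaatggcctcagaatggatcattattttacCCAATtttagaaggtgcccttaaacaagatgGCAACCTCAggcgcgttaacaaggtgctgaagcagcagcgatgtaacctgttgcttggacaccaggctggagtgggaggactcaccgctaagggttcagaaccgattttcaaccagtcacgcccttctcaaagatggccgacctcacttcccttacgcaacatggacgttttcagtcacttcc
PSMA5, chr1:109969021-109969320, minus strand, GRCh37: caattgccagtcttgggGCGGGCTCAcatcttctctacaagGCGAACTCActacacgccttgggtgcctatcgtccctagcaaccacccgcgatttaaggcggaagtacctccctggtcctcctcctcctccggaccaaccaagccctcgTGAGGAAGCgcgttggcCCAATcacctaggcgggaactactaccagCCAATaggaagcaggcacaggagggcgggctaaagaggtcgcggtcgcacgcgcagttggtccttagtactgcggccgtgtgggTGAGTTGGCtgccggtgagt

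The motifs were searched on both strands. The interferon-stimulated response element, taken as 2 GAAA words with any 2 bases between them, was found in 6 of 42 windows (14.3%), of PSMB8, PSMB10, PSME1, PSME2, PSMB4 and PSMA4, and in 3.58% of all 35097 RefSeq promoter windows. With 0 at the first transcribed base, the match began at -4 in PSMB8, at -21 in PSMB10, at -28 in PSME2 and at 5 in PSME1. The interferon gamma activated site, TTCNNNGAA, was found in 7 windows (16.7%), of PSMB8, PSMB5, PSMA2, PSMC4, PSMD2, PSMD3 and PSME3, and in 7.66% of all windows. The PSMB5 matches, 2 in number, lie in a second window that had no exact match in GRCh37 and is not shown. The PSMB9 window held neither. A second PSMB8 window, chr6:32812407-32812706, held no match to any of the motifs and is not shown.

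CCAAT, the word bound by NF-Y, was found in 17 windows (40.5%) and in 34.6% of all windows. The antioxidant response type element, TGACNNNGC or TGAGNNNGC, which NRF1 and NRF2 can bind at proteasome genes, was found in 21 windows of 20 genes (50%) and in 29.1% of all windows. PSMA5 held 4 such matches and 2 of CCAAT. Sites of different motifs overlapped in 2 windows, of PSMA3 and of PSMB5. A match is a run of letters and not a bound site.

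The openness of PSMB8 and PSMB9 also varied least between lines. The SD of log2(CPM + 1) over the 22 untreated lines was 0.24 at PSMB9 and 0.27 at PSMB8. Of all 18012 promoter regions, 0.05% had a lower SD than PSMB9 and 0.183% a lower SD than PSMB8. With TMM scaling these shares were 0.044% and 0.322%. The ranking does not allow for level, and counting error adds less to the SD at higher levels. The median level was 54.9 CPM at PSMB9 and 46.3 at PSMB8. Over all promoter regions the median of the mean levels was 16.2 CPM. In CPM, PSMB9 ranged from 39.1 to 68.1, which is 1.74-fold, and PSMB8 from 30.8 to 62.3, which is 2.02-fold. Both were lowest in OPM2, where 37 other regions within 250 kb also had their lowest summed level of the 22 lines, 0.687 times the median of the others around PSMB8 and 0.674 times around PSMB9. The start of TAP2, another peptide transporter gene in the same stretch of the MHC, had an SD of 0.30, and the neighbouring BRD2 start 0.27. The spread at PSMB10 was 0.45 at the region inside the gene and 0.54 at the coding start.

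After these 2, PSMB3 (SD 0.30, from 25.0 CPM in H1112 to 57.2 in KMS18) and PSMD12 (SD 0.34, from 16.1 in KMS20 to 39.7 in KMS12PE) varied least. Constitutive catalytic genes varied more, with SDs of 0.61 at PSMB5, 0.68 at PSMB7 and 0.70 at PSMB6. PSMB6 had only 1 to 36 counts per untreated library, so counting error is a large part of its SD. The median over the 44 regions was 0.49, and over all promoter regions it was 0.71 with quartiles of 0.52 and 1.07. Part of the spread was shared with the surrounding segment. Scaled by the regions within 5 Mb, the median over the 44 fell to 0.37, and with TMM scaling it was 0.53. The 5 Mb scaling also changed the order. PSMB8 stayed lowest at 0.20, but PSMC1 (0.21) and PSME2 (0.23) came before PSMB9 (0.24). PSMB5 fell to 0.34, near the PSMB10 regions at 0.32 and 0.33, while PSMB7 had 0.45 and PSMB6 0.51. Copy number was not measured in these files.

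**Figure D3:**
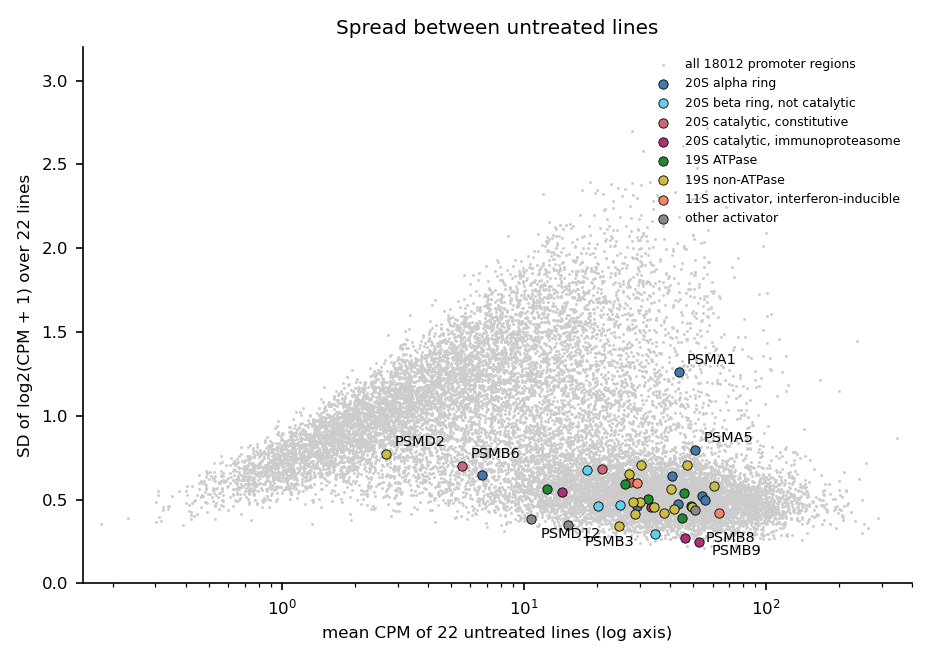
Spread between 22 untreated lines against the mean level, for all 18012 promoter regions (grey) and the 44 proteasome gene promoter regions (coloured by class). The x axis is mean CPM on a log axis and the y axis the SD of log2(CPM + 1); PSMB9 at 0.24 and PSMB8 at 0.27 lie on the lower edge of the grey cloud at their level, and the upstream region of PSMA1 at 1.26 lies highest.

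The upstream start region of PSMA1 had the largest spread, an SD of 1.26. It had no count in PCM6, which allows up to 1.39 CPM (3 counts), and between 21.3 and 76.3 CPM in the other 21 lines. Of 25 other regions within 250 kb, 14 were below the median of the other lines in PCM6. The low ones lay on both sides of that start, in a single run from chr11:14558394 to chr11:14790659. Within the run only the region at chr11:14735278-14735880 was not low, with 1.39 CPM against a median of 1.17. The run held 3.72 CPM against a median of 10.5 at chr11:14576363-14577115 and 2.79 against 9.14 at chr11:14786694-14787183. The cause of this low run was not tested. Of the 14 low regions, 4 were at 0 counts, but their medians over the lines were only 0.82 to 1.43 CPM. The summed level of the 25 in PCM6 was 321 CPM, 1.11 times the median of the other lines. Much of that sum came from regions outside the run, such as the start of CYP2R1. Among the low regions was the intronic region of PSMA1 at chr11:14599691-14600550, with 4.65 CPM in PCM6 against a median of 21.7. Regions farther out were not low in PCM6. The downstream start of PSMA1 had 63.7 CPM, above its median of 49.6, and the start of CYP2R1 170 CPM, above its median of 113.

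PSMA5, an alpha ring gene, came next with an SD of 0.80, from 10.4 CPM in OPM2 through 48.9 to 149 in KMS11. Neighbouring regions moved with it. Over 41 other regions within 250 kb the summed level was 790 CPM in KMS11, 2.79 times the median of the other lines, and 102 CPM in OPM2, 0.353 times that median, and these were the highest and lowest of the 22 lines. At PSMA5 itself the ratios were 3.05 and 0.213. Scaled by regions within 5 Mb, its SD was 0.38. The part of copy number in these values was not tested. The second start region of PSMD2 had an SD of 0.77 at a mean of 2.69 CPM, where counting error is large.

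**Figure D4:**
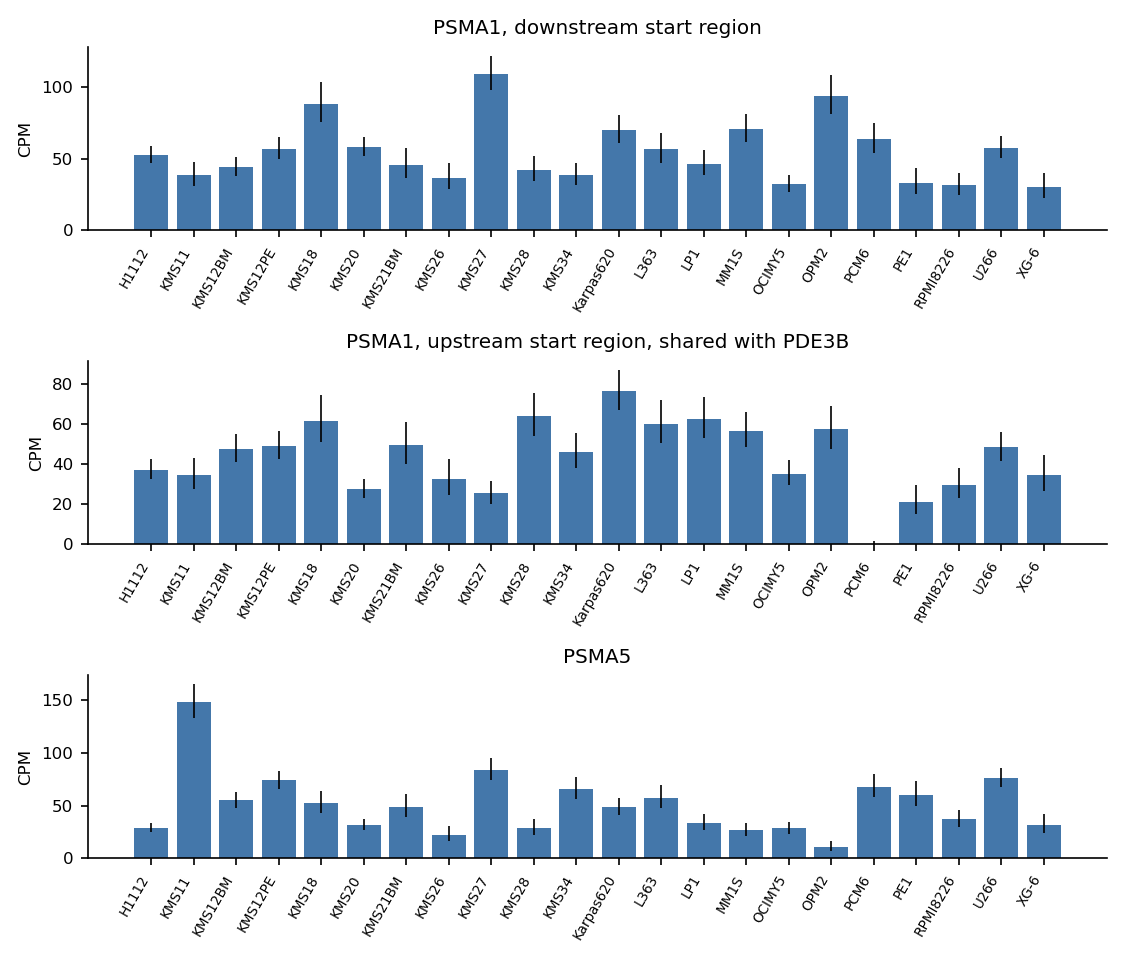
CPM at both PSMA1 start regions and at PSMA5 in each of 22 untreated lines. Bars are CPM and error bars 95% Wilson intervals, which cover counting error only; the upstream PSMA1 region is at 0.00 in PCM6 while the downstream one is at 63.7, and PSMA5 runs from 10.4 in OPM2 to 149 in KMS11.

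Single lines were extreme at many of the 44 promoters. Karpas620 was highest at 7 and KMS27 at 6, and H1112, KMS26, PCM6 and XG-6 were each lowest at 5. Over the 22 lines the level of single promoters and the share of counts in all promoters had Pearson's r from -0.05 to 0.76, which was highest at PSMD3 and PSMD2 and 0.21 at PSMB8. The libraries share this quality measure, so these values are descriptions only.

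Across lines the typical pair of proteasome promoters was only weakly correlated. No r was computed for pairs of other promoters, and counting error at low regions can draw r toward 0. Over 946 pairs of the 44 regions, Pearson's r of log2(CPM + 1) over 22 lines had a median of 0.13 and ran from -0.63 to 0.92. Pairs on 1 chromosome had a median of 0.41 (76 pairs) and pairs on different chromosomes 0.11 (870 pairs). The highest value, 0.92, joined PSMD8 and PSMC4 on chromosome 19, and the next 2, 0.83 for PSMC6 with PSMA3 and 0.81 for PSME2 with PSMB5, lay on chromosome 14. Of the 44 regions, those most like PSMB8 were PSMB9 (r = 0.52), PSMB3 (0.48) and PSMC2 (0.42). Those most like PSMB9 were PSMA4 (0.63), PSMB8 (0.52) and PSMC2 (0.49), and those most like the PSMB10 region inside the gene were PSMD3 (0.70), the upstream start of PSMA1 (0.66) and PSMD2 (0.64). PCM6 was the lowest line both at that PSMB10 region (14.9 CPM) and at the upstream PSMA1 start, which had no count there. The value of 0.66 thus leans on 1 library, and r without it was not computed. All points come from the same libraries.

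Lenalidomide libraries were compared with untreated libraries of the same 6 lines to ask whether the drug changed these regions. None of the 53 proteasome gene regions with enough counts passed an adjusted p of 0.05 (edgeR quasi-likelihood test with the line as a block, Benjamini-Hochberg over 37732 regions), and 43 of the 53 were promoters. Of all regions tested 5.4% passed, and of promoter regions 2.47%. At an unadjusted p below 0.05 there were 4 of the 43 promoters, 3 of them lower, and 1 region outside promoters, while 12.1% of all promoter regions had such a p. DESeq2 also gave 0 of the 53.

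Most fold changes of promoters lay close to 0. The log2 fold change of the 43 ran from -0.34 to 0.52 with a median of -0.06, and 29 (67.4%) were below 0. Over all 13093 promoter regions tested the median was -0.02 and 54.9% were below 0. The share of counts in promoters fell in KMS27, L363, MM1S and OPM2 and rose in Karpas620 and RPMI8226, and its part in these signs was not tested. By class, 11 of 13 regions of the 19S subunits other than ATPases and 5 of 6 of the ATPases were below 0, with medians of -0.14 and -0.07, and the 3 constitutive catalytic genes had a median of -0.30. The 4 immunoproteasome regions had a median of -0.04, with 2 below 0.

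PSMA6, an alpha ring gene, had the lowest adjusted p. It went from 63.1 to 53.4 CPM in KMS27, from 117 to 92.7 in Karpas620, from 70.9 to 50.7 in L363, from 27.1 to 20.7 in MM1S, from 32.3 to 24.0 in OPM2 and from 23.6 to 22.4 in RPMI8226. It was thus lower in 6 of 6 lines, although levels of the lines overlapped between conditions. Its log2 fold change was -0.33 ± 0.10 (SE; edgeR p = 0.00336, adjusted p = 0.0574), and without RPMI8226 it was -0.36 with an adjusted p of 0.0311 (edgeR). Without that line 431 of 12815 promoter regions of the series passed, more than the 323 of 13093 with it. The region that PSMD7, a lid subunit, shares with AC009120.4 was also lower in 6 of 6 lines, with changes from -0.50 to -0.05 on the log2 scale and a log2 fold change of -0.32 ± 0.12 (SE; edgeR adjusted p = 0.133). Among the 43 promoters, 4 were lower and 1 higher in all 6 lines, and 7.62% of all promoter regions tested moved 1 way in all 6. The others that were lower are PSMD6 and PSMC4, and PSME4 was higher, named here after their values were seen.

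PSMB5, the bortezomib target, went from 51.3 to 39.3 CPM in KMS27, from 40.2 to 36.4 in Karpas620, from 40.3 to 32.7 in L363, from 16.1 to 8.35 in MM1S, from 24.5 to 14.9 in OPM2 and from 21.2 to 23.3 in RPMI8226. It was lower in 5 of 6 lines, by most in MM1S. Its log2 fold change was -0.34 ± 0.14 (SE; edgeR adjusted p = 0.182), the largest fall among the proteasome gene promoter regions. PSMB7 had -0.30 ± 0.15 (SE; edgeR adjusted p = 0.299) and PSMB6 -0.07 ± 0.24 (SE; edgeR adjusted p = 0.930, interval -0.54 to 0.40).

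At the immunoproteasome promoters the log2 fold changes ran from -0.11 to 0.18. PSMB8 was between 30.8 and 55.7 CPM before and between 29.4 and 55.1 CPM after lenalidomide, with a log2 fold change of 0.03 ± 0.11 (SE; edgeR adjusted p = 0.928) and an interval of -0.18 to 0.24. PSMB9 was between 39.1 and 64.4 before and between 39.9 and 71.6 after, with 0.18 ± 0.11 (SE; edgeR adjusted p = 0.400, interval -0.03 to 0.39). PSMB10 had -0.11 ± 0.11 at the region inside the gene and -0.11 ± 0.17 at the coding start (SE; edgeR adjusted p = 0.682 and 0.819). The intervals are 95% normal intervals from the SE and each includes 0.

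Relative to the constitutive partner, the change after lenalidomide was higher by 0.40 ± 0.31 for PSMB8 against PSMB5 (SD, n = 6 lines), above 0 in 5 lines (p = 0.0625 by exact enumeration of sign flips, two-sided; adjusted p = 0.188 over 3 pairs). For PSMB9 against PSMB6 it was 0.23 ± 0.34, above 0 in 4 lines, and for PSMB10 against PSMB7 0.20 ± 0.35, above 0 in 5 lines (same exact test, p = 0.1875 and adjusted p = 0.188 for both). The smallest p that 6 lines allow is 0.03125. In the first pair the exception was RPMI8226, with -0.11, and the other 5 lines were between 0.29 and 0.78. Without RPMI8226 the first difference was 0.50 (exact p = 0.0625, the smallest for 5 lines).

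Among the 11S and other activators, PSME2 had a log2 fold change of 0.07 ± 0.09 and PSME1 of -0.06 ± 0.13 (SE; edgeR adjusted p = 0.783 and 0.885). PSME4 was 0.11 ± 0.10 (SE; edgeR adjusted p = 0.605). The largest rise among the proteasome gene promoters, 0.52 ± 0.22 (SE; edgeR adjusted p = 0.186), was at the PSME3 region chr17:40975957-40976660, labelled BECN1, an autophagy gene. This region was higher in 5 of 6 lines, at levels of 6.14 to 9.69 CPM before and 7.87 to 19.8 after. The PSME3 region that holds its main start had -0.04 ± 0.19 (SE). The next largest values after PSME4 among promoter regions labelled with a member were PSMB3 with 0.11 ± 0.13 and PSMA2 with 0.09 ± 0.10 (SE; edgeR adjusted p = 0.741 and 0.745).

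**Figure D5:**
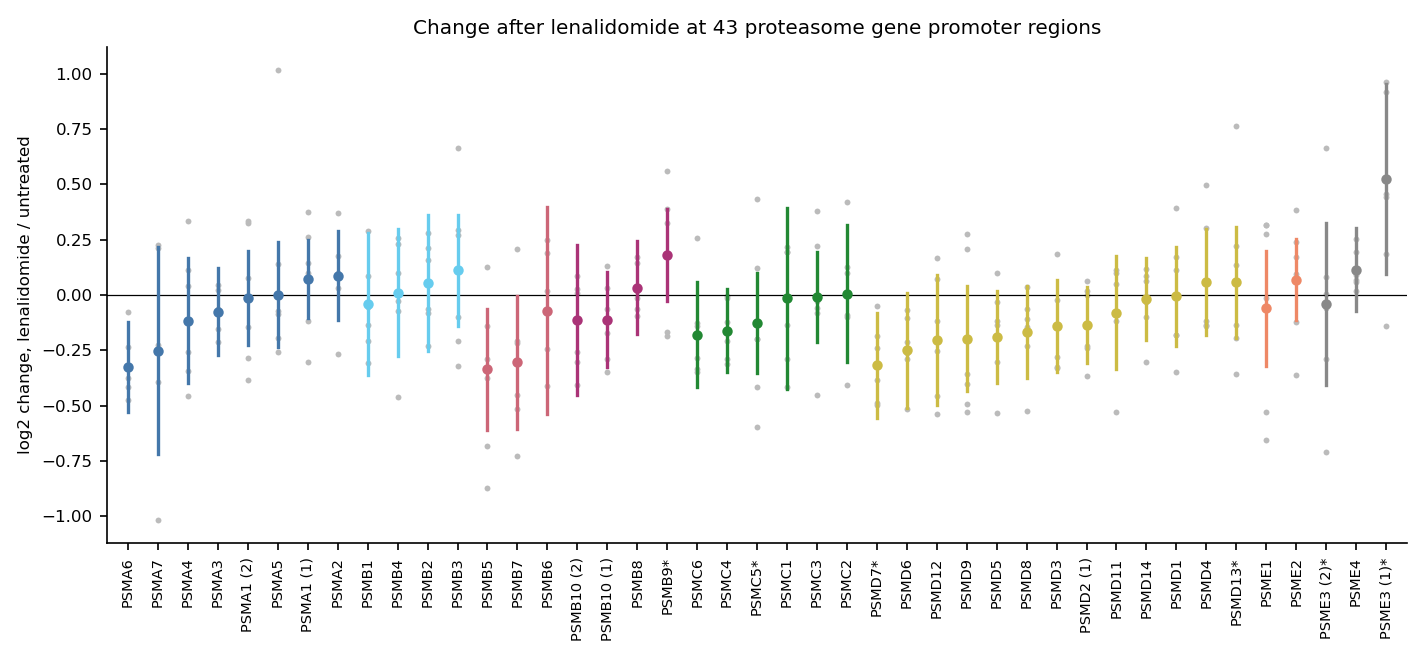
Log2 change after lenalidomide at 43 proteasome gene promoter regions, ordered by class and then by change. Coloured points are edgeR log2 fold changes with 95% normal intervals from the SE as bars. Grey points are the change of log2(CPM + 1) in each of 6 lines, and an asterisk marks a region labelled with another gene. PSMA6, PSMD7, PSMB5 and PSMB7 have bars wholly below 0 and the first PSME3 region wholly above. The bars are somewhat narrower than the test implies, since PSMB7 had an edgeR p of 0.0539. No region passed an adjusted p of 0.05.

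Genes that build or regulate the proteasome varied in how often their promoters were called. Of 17 assembly and accessory genes 15 had a promoter region and PAAF1 and PSMB11 had none. By the tallest region of each gene, 9 were called in all 22 untreated lines, where 29.4% of all promoter regions were. That share counts every region and not the tallest of a gene, so it is not directly comparable. Among the 9 were the chaperones PSMG1 to PSMG4 and the transcription factor NFE2L2. POMP, the chaperone that matures the beta ring, was called in 21 lines at a median of 13.3 CPM. NFE2L1, which encodes NRF1, was called in 7 lines at a median of 7.02 CPM, and DDI2, the protease that activates NRF1, in 15. The tissue-restricted PSMA8, which replaces PSMA7 in testis, was called in 6 lines, with 0.00 to 22.6 CPM and a median of 1.35. After lenalidomide 0 of the 13 tested passed an adjusted p of 0.05 (edgeR), with log2 fold changes from -0.24 to 0.22 and 9 below 0. Of 9 antigen processing genes 8 had a promoter region and 5, among them TAP1, TAP2, ERAP1 and NLRC5, were called in all 22 lines, while TAPBP was called in 5. None of the 8 tested passed after lenalidomide (edgeR), the nearest being TAPBP with 0.38 ± 0.16 (SE; adjusted p = 0.190). Of the 8 plasma cell markers 1 passed, MZB1 with -0.49 ± 0.14 (SE; edgeR adjusted p = 0.0311).

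Outside promoters, 55 regions in 25 genes were labelled with a proteasome gene, at a median of 5775 bp from the start. Of them 30 (54.5%) were called in 1 library only, against 40.9% of such regions over all genes, and 0 were called in all 28. Their mean level had a median of 2.24 CPM, too low for single libraries to be compared. PSMA1 had 8 such regions, and the one with the highest mean, at chr11:14599691-14600550, in an intron of the gene, had 21.3 ± 6.79 CPM (SD, n = 22) and was called in 27 libraries. A second intronic region, chr11:14576363-14577115, had 12.0 ± 9.69 CPM and a log2 fold change of 0.52 ± 0.22 after lenalidomide (SE; edgeR adjusted p = 0.195), and without RPMI8226 of 0.85 ± 0.23 (SE; edgeR adjusted p = 0.0183). In that setting 2503 of 37131 regions of the series passed.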

How the data were processed

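ATAC-seq libraries of 22 untreated and 6 lenalidomide-treated myeloma lines were used. Per the labels and the methods, the authors aligned reads to GRCh37 with Bowtie2 2.2.6, called peaks per library with MACS2 2.1.0.20151222 at a q of 0.01 and merged them. The deposited raw counts per region are not normalized, and whether reads or fragments were counted, or read ends shifted, is not given in the sources used here. A second deposited table, of whole numbers up to 4, was read as the library's own peaks per region, and a region above 0 was taken as called, although the files do not define it. Deposited normalized and peak files were not used.

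CPM were computed here from library totals. CPM per kb divides by region length, since a wider region collects more counts, and log2 values used a pseudocount of 1. Depth per library limits single values, and Wilson intervals of 95% cover counting error only. Lenalidomide was tested with edgeR 4.0.16 (TMM, filterByExpr, quasi-likelihood, Benjamini-Hochberg at 0.05) over all regions in R 4.3.3, with DESeq2 1.42.0 as an alternative. On simulated counts edgeR recovered 126 of 200 regions changed 2-fold, with 5 false calls. These were drawn from all regions kept by the filter, with a common dispersion, so the rate is not specific to proteasome promoters. No smaller change was simulated, so changes of the size seen at the proteasome genes could be missed. The block is the cell line, which both libraries of a pair share. Each SE is the fold change divided by the square root of F. Catalytic pairs were compared by two-sided sign flips over lines. Each line was cultured once per condition, so no p-value measures the spread between cultures of a line. The sign-flip p-values measure how differences within lines spread over the lines. The edgeR p-values rest on the variation left after the line block, counting error included.

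The design took regions by their gene label, and PSMB9 and 4 other genes had none, so the shared regions were added after the files had been seen, as was the PSMB10 alternative. Named genes are the catalytic subunits and activators, the 3 with the largest and the 3 with the smallest spread, and the 3 largest rises and falls. Members and lists were chosen with earlier results of these data known. Sequences are from RefSeq. Some marker genes are not reported here.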

Additional observations from a re-analysis of the deposited data

Results flagged for a closer look

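At 3 promoter regions the change after lenalidomide in 1 of the 6 lines stood apart from the other 5 (Dixon's test at 95%), of 47 sets of 6 changes examined, where about 2.35 would be found by chance. PSMA5 rose by 1.02 on the log2 scale in OPM2, from 10.4 CPM (20 counts) to 22.2 CPM (49 counts), while the other lines lay between -0.26 and 0.14. The summed level of 41 other regions within 250 kb moved by 0.11 in OPM2 and by -0.28 to 0.14 in the others. PSMC6 changed by 0.25 in OPM2 and by -0.35 to -0.13 in the others, and PSMD11 by -0.53 in MM1S and by -0.12 to 0.11 in the others. The cause of these values was not tested.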

How the results depend on the processing

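The differences PSMB8 minus PSMB5 and PSMB9 minus PSMB6 in untreated lines kept their direction and passed 0.05 under all alternatives run (TMM, a pseudocount of 0.1, the tallest region, no length scaling, scaling within 5 Mb and each line left out), with 0.35 to 0.45 and 1.58 to 1.75 when a line was left out. PSMB10 minus PSMB7 was 0.27 to 0.41 with a line left out, rose to 0.69 with the tallest region and turned to -0.26 with the PSMB10 coding start region alone, an alternative chosen after seeing the data. Without length scaling the 3 differences were 0.83, 3.15 and 1.22. Their changes after lenalidomide stayed above 0, at 0.32 to 0.50, 0.15 to 0.31 and 0.13 to 0.31 with a line left out, and 5 lines cannot give a p below 0.0625. Proteasome regions past the threshold after lenalidomide numbered 0 to 2 with a line left out, the 2 (PSMA6 and an intronic region of PSMA1) without RPMI8226, and 0 under all other alternatives run. Without RPMI8226 the count over all regions also rose, to 2503 of 37131, so these 2 are not particular to the proteasome genes. Without the replicate block, 0 regions of the whole series passed and 440 had an unadjusted p below 0.05. Over all regions the count of 2036 became 834 with DESeq2, 4092 with no filter and 587 with at least 10 counts in each library. Signs near 0 turned at PSMB3 (-0.0098 without Karpas620; -0.0098 to 0.185 with a line left out), PSMB6 (0.040 without Karpas620; -0.131 to 0.040), PSME1 (0.00054 with no filter; -0.169 to 0.061 with a line left out) and the PSME3 main start (0.021 with no filter; -0.215 to 0.089 with a line left out). The cause was not tested. Depth limits PSMB6 and the second PSMD2 start, and regions outside promoters, to a few counts per library.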
